A study of Homo sapiens with 6 samples.

Results

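The genes examined encode the subunits of the 26S proteasome, and they were followed in A549 cells, an established line from a human lung adenocarcinoma, after knockdown of the long noncoding RNA PLANE. They were chosen by name, with no measured value used: PSMA1 to PSMA7, PSMB1 to PSMB7, PSMB10, PSMC1 to PSMC6 and PSMD1 to PSMD14, which makes 35 protein-coding genes. Of these, 34 were matched in tables of 34957 genes with an identifier, and PSMB3 was not analysed here. Of the 34 genes, 14 belong to the 20S core (7 of the alpha ring, 6 of the beta ring and the inducible subunit gene PSMB10) and 20 to the 19S cap (9 of the base, 8 of the lid and 3 chaperones of cap assembly). Cells were transfected for 48 h with a control siRNA (si-ctrl), with siRNA1 (si-PLANE.1) or with siRNA2 (si-PLANE.2), with 2 libraries of short-read RNA-seq per group. All groups are the same parental line, and no other allele or agent is named. The paper calls the 2 libraries per group experimental repeats, without defining the term. Labels do not say that the libraries came from separate cultures, so p-values measure only the spread between these libraries, which may be technical. The study used the comparison to ask which transcripts respond to loss of PLANE.

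The 26S proteasome degrades proteins that carry ubiquitin chains. Its 20S core is a barrel of stacked rings, in which the outer alpha rings gate the entry and the inner beta rings hold the proteolytic sites. The 19S cap has a base, whose ATPases (PSMC genes) unfold substrates, and a lid, which includes the deubiquitinase PSMD14. Most subunits are needed in fixed proportions, and in mammalian cells many subunit genes are activated together by the transcription factor NFE2L1, which binds antioxidant response elements (AREs) in their promoters.

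Short stretches of promoter sequence are shown first, because a shared promoter element is the textbook link between these genes. The core of the ARE, written TGACNNNGC, was searched on both strands in windows from 250 bases before to 50 bases after each gene start (RefSeq, GRCh38.p14). It was found in 9 of the 30 genes with a window (30.0%) among the 35 named above, against 16.1% of the 27305 genes with a window. By complex, it was found in 2 of 11 core genes and in 7 of 19 cap genes. The genes with a match were PSMA4, PSMB3, PSMC4, PSMC5, PSMD1, PSMD3, PSMD5, PSMD9 and PSMD12. No window was available for PSMA7, PSMB1, PSMB6, PSMB7 and PSMD4. Matches of 5 genes follow, chosen to span the range of responses described below, 5′ to 3′ on the strand of the gene and with the motif in capitals:
PSMC5, chr17:63827654-63827682, + strand, motif on the opposite strand: gaccggatctGCTGTGTCAgcgccgccct
PSMD3, chr17:39980760-39980788, + strand: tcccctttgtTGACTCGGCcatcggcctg
PSMA4, chr15:78540650-78540678, + strand: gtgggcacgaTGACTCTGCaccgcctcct
PSMD12, chr17:67366724-67366752, − strand: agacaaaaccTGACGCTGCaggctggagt
PSMD5, chr9:120843038-120843066, − strand: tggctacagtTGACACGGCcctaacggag
A match describes these letters only. Relative to the gene start, the motif began at -57 in PSMC5, -37 in PSMD3, -126 in PSMA4, -165 in PSMD12 and -134 in PSMD5. PSMD3 holds another match on the opposite strand, at 34.

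The libraries held 10572151 to 20778431 expected counts, which are estimates of the reads from each transcript. The labelled cell line was checked by its markers. KRT8 lay between 2712 and 5823 FPKM. AKR1B10, an aldo-keto reductase abundant in A549, lay between 985 and 4542 FPKM, while CDKN2A, deleted in this line, stayed at or under 0.44 FPKM. Of the 5 epithelial markers listed, KRT8 among them, 4 or 5 reached 1 FPKM in each library, and not all were as abundant as KRT8. A list of 4 fibroblast markers summed to 3.37 to 13.4 FPKM. Of a list of 5 leukocyte markers, PTPRC and CD3E were at or under 0.02 FPKM, while CD14 lay between 4.06 and 9.41 FPKM and CD68 between 18.2 and 63.0 FPKM. The list summed to 38.9 and 32.6 FPKM in si-ctrl, 44.9 and 22.3 in si-PLANE.1, and 59.5 and 70.1 in si-PLANE.2, and its part in the results was not tested. MTAP, which lies beside CDKN2A and is deleted with it in A549, was listed at 3.80 to 5.70 FPKM in si-ctrl and si-PLANE.1 and at 0.77 and 0.98 in si-PLANE.2, and the epithelial gene CDH1 at 130 to 160 FPKM and at 36.5 and 35.4. FPKM values are the authors' and are corrected for transcript length and depth. Here they were summed over the transcripts of each gene. The libraries of si-PLANE.2 differed from the other 4 in a way that bears on every result. The summed FPKM of 33 replication-dependent histone genes, whose mRNAs lack a poly(A) tail, was 5994 and 7381 in the control libraries, 4176 and 5190 in si-PLANE.1, but 231 and 221 in si-PLANE.2. The methods mention selection of poly(A) RNA as well as depletion of rRNA and do not say which was applied to which library. The effect of siRNA2 and that of library preparation therefore cannot be told apart. PLANE was not analysed here, so its knockdown was not checked.

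In control cells the subunit mRNAs were abundant but far from equal in level. Per length, the highest was PSMD8, a lid subunit, at 332 and 321 FPKM, followed in the mean of the 2 libraries by PSMB4, a beta ring subunit, at 208 and 207 FPKM. The lowest was PSMB10, the interferon-inducible trypsin-like subunit, at 13.0 and 9.76 FPKM, and next came PSMD5, a chaperone of the 19S base, at 25.8 and 21.4 FPKM. The median of the 34 genes was 68.0 and 56.2 FPKM. By sub-group, the median in the si-ctrl libraries was 94.6 and 69.6 FPKM for the alpha ring, 84.6 and 70.7 FPKM for the beta ring, 64.6 and 51.2 FPKM for the base, 61.7 and 52.3 FPKM for the lid, and 33.1 and 33.0 FPKM for the cap chaperones. Neighbouring sub-groups overlapped in their ranges of single genes.

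The si-ctrl replicates were themselves unequal for this group of genes. After TMM scaling, replicate 1 exceeded replicate 2 for 30 of the 34 genes, with a median difference of 0.20 on the log2(CPM + 1) scale, whereas 49.6% of all 14440 genes were higher in replicate 1. In si-PLANE.1 the first replicate was higher for 20 of 34 genes (median difference 0.05), against 49% of all genes. In si-PLANE.2 it was higher for 27 of 34 (median difference 0.06), against 50% of all genes. The control libraries thus differed from each other by about as much as the median shifts reported for si-PLANE.1 below.

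**Figure D1:**
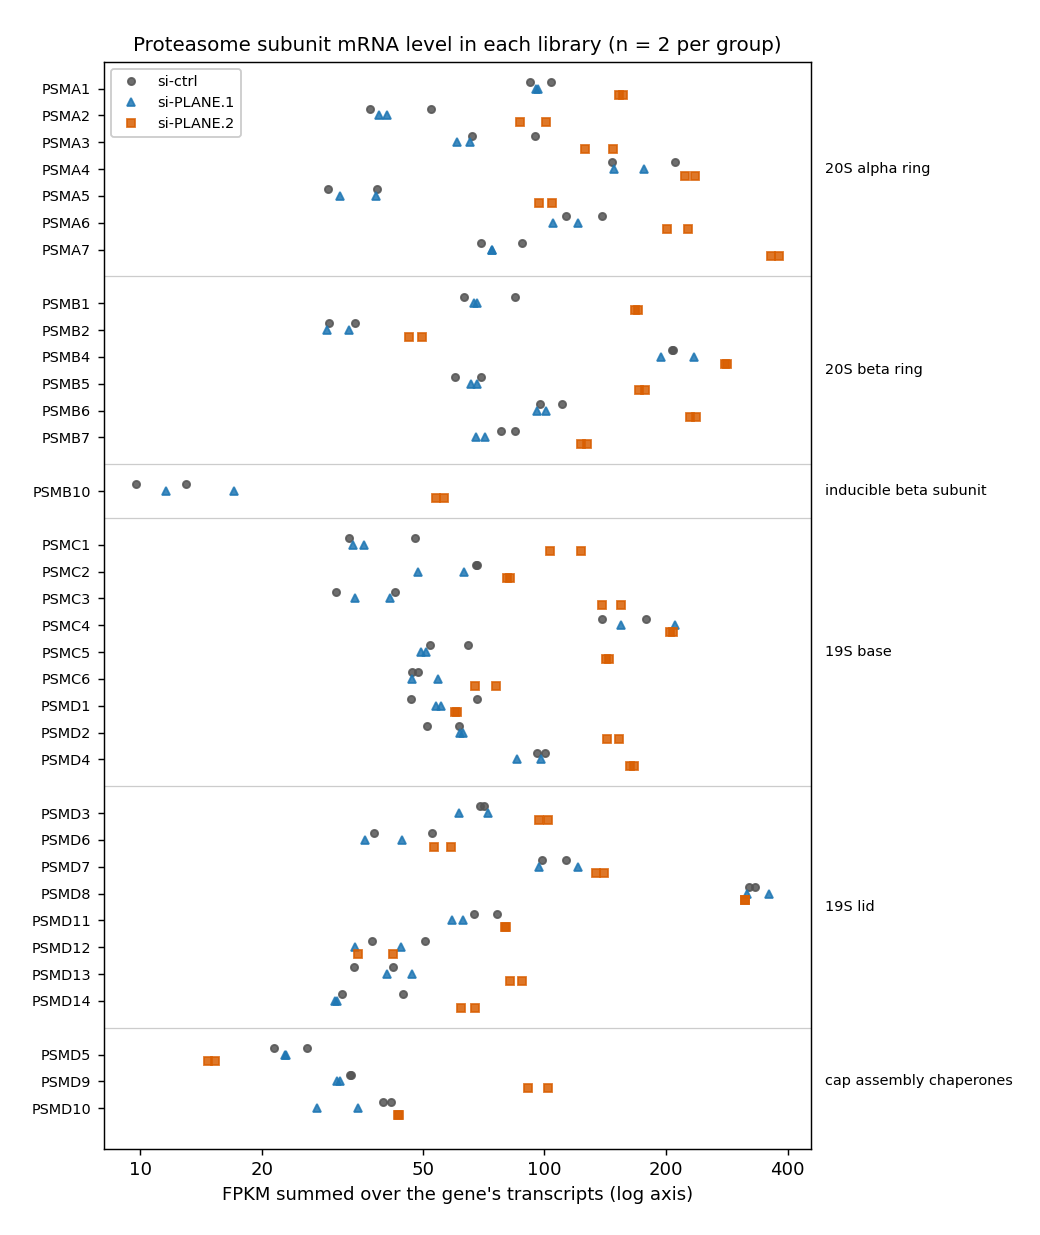
Level of each proteasome subunit gene in every library, as FPKM summed over the gene's transcripts on a log axis, with 2 points per group (grey circles si-ctrl, blue triangles si-PLANE.1, orange squares si-PLANE.2) and genes ordered by sub-group. The si-PLANE.2 points lie to the right of both si-ctrl points for 30 of 34 genes, and to the left for PSMD5 and PSMD8.

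With si-PLANE.1, no proteasome subunit gene passed the test, in which libraries were not paired by replicate number. A fit with a term for that number called some of them and is described with the other processing choices below. edgeR's quasi-likelihood test with Benjamini-Hochberg adjustment over all genes called 0 of 34 genes, against 0.0344% of all genes tested (5 of 14535), and DESeq2 likewise called 0 of 34 (0.86% of all genes). At an unadjusted p under 0.05 there were 4 of 34 (PSMB7, PSMC5, PSMD10 and PSMD11), against 10.4% of all genes. Fitted values nevertheless leaned downwards: 31 of 34 were below 0, against 49.7% of all genes, with a median log2 fold change of -0.18 beside 0.0018 for all genes. That lean varied with the control library and with the scale. Without si-ctrl replicate 1, 24 of 34 were below 0 with a median of -0.05, and without si-ctrl replicate 2, 33 of 34 with a median of -0.32. On log2(TPM + 1) 18 of 34 were below 0 with a median of -0.0032, where the median of all genes was 0.14.

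The 4 lowest fitted values with si-PLANE.1 belonged to PSMD10 (gankyrin, a chaperone of cap assembly), the ATPase PSMC5, the alpha subunit PSMA2 and the trypsin-like subunit PSMB7. PSMD10 measured 40.0 and 41.8 FPKM in si-ctrl and 27.3 and 34.6 in si-PLANE.1, so that the groups did not overlap. Its log2 fold change was -0.53 ± 0.16 (SE) with an adjusted p of 0.38 (edgeR). PSMD10 has processed pseudogenes in the tables, whose summed FPKM was separate from that of PSMD10 and equal to 0.253% to 13.0% of it depending on the library, so reads may be divided unevenly between them. For PSMC5 the log2 fold change was -0.40 ± 0.14 (adjusted p = 0.42, edgeR), for PSMA2 -0.34 ± 0.15 (adjusted p = 0.48, edgeR), and for PSMB7 -0.33 ± 0.14 (adjusted p = 0.47, edgeR). Above 0 stood PSMB10 at 0.41 ± 0.34, PSMC4 at 0.14 ± 0.18 and PSMD13 at 0.07 ± 0.16, with adjusted p-values from 0.70 to 0.89 by edgeR. Both libraries of si-PLANE.1 lay below both of si-ctrl in FPKM for 8 of 34 genes (14.2% of all genes) and above them for 1 of 34 (26.9% of all genes).

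With si-PLANE.2, nearly the whole complex was called, mostly upwards. edgeR called 31 of the 34 genes, against 64.1% of all genes tested (9083 of 14168), so that a call by itself was common in this comparison. The direction differed from the background: 30 of 34 genes were called higher, against 31.8% of all genes, and 1 of 34 was called lower, against 32.3%. The median log2 fold change of the 34 genes was 0.99, a 1.99-fold rise, beside -0.03 for all genes. Of the 34 genes, 24 lay above the third quartile of all genes tested, 10 above the 90th percentile, and 3 below the median. In FPKM, both si-PLANE.2 libraries lay above both si-ctrl libraries for 30 of 34 genes (30.9% of all genes) and below them for 2 (49.7% of all genes).

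**Figure D2:**
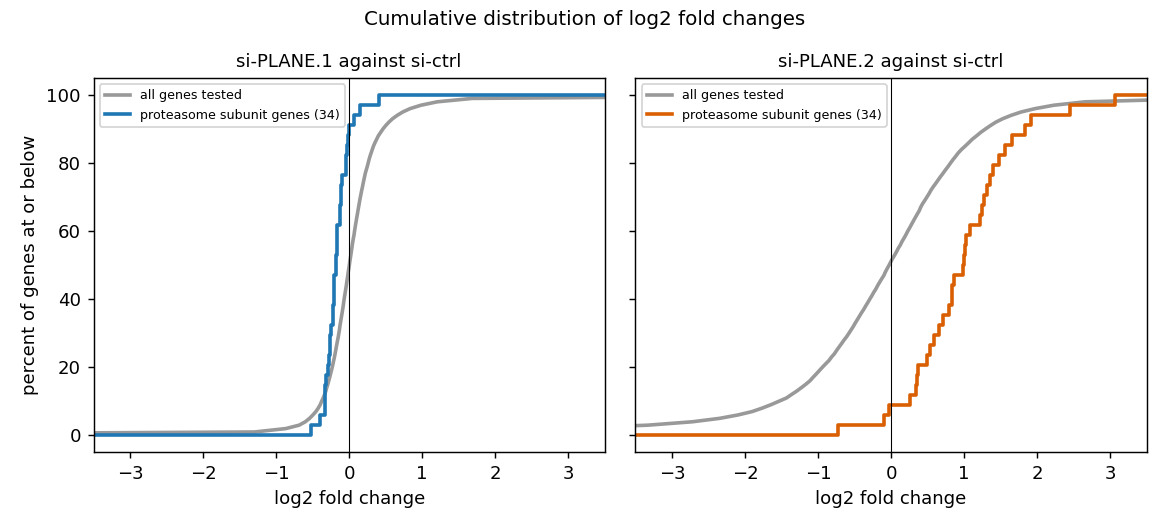
Cumulative share of genes at or below each log2 fold change (horizontal axis, edgeR) for all genes tested (grey) and for the 34 proteasome subunit genes (coloured steps), for si-PLANE.1 (left) and si-PLANE.2 (right) against si-ctrl. The subunit genes' median is at -0.18 on the left and 0.99 on the right, beside 0.0018 and -0.03 for all genes.

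The number of genes called with si-PLANE.2 depended on the scale. On log2(FPKM + 1) limma called 25 of 34 genes, 24 of them higher (all genes: 57.2% called, 21.2% higher), and on log2(TPM + 1) 20 of 34, 19 of them higher (all genes: 57.1% called, 16.3% higher). The median of all genes was shifted to -0.22 and -0.37 on these scales, and that of the 34 genes was 0.70 and 0.54. Of all calls, 49.7% were higher by edgeR, 37.1% on log2(FPKM + 1) and 28.6% on log2(TPM + 1). Some calls of small rises were lost when 1 library was left out, with fitted values that stayed above 0. Without si-PLANE.2 replicate 3, the adjusted p by edgeR was 0.074 for PSMC4, 0.25 for PSMD6, 0.051 for PSMD7, 0.23 for PSMD8 and 0.17 for PSMD10. Without si-PLANE.2 replicate 4 it was 0.079 for PSMC4, 0.10 for PSMD6, 0.20 for PSMD8 and 0.076 for PSMD10, and without si-ctrl replicate 2 it was 0.078 for PSMD6.

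Of the proteolytic subunit genes, PSMB5, PSMB6, PSMB7 and PSMB10 rose with si-PLANE.2. PSMB5 (chr14:23485752-23504439, hg19, − strand) carries the chymotrypsin-like site, the main target of bortezomib. Its level was 69.7 and 60.2 FPKM in si-ctrl, 68.2 and 65.7 in si-PLANE.1, and 177 and 171 in si-PLANE.2. The si-PLANE.1 values lay between the control values, whereas the si-PLANE.2 values stood well above all others. The fitted log2 fold change was 1.56 ± 0.10 (SE), with an adjusted p of 1.99e-05 (edgeR).

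PSMB6 (chr17:4699439-4701797, + strand), with the caspase-like site, followed the same course. It measured 110 and 97.4 FPKM in si-ctrl, 101 and 95.9 in si-PLANE.1, and 237 and 229 in si-PLANE.2, a log2 fold change of 1.39 ± 0.10 with siRNA2 (adjusted p = 2.59e-05, edgeR). PSMB7 (chr9:127115744-127177723, − strand), with the trypsin-like site, measured 84.8 and 78.2 FPKM in si-ctrl, 67.7 and 71.3 in si-PLANE.1, and 128 and 123 in si-PLANE.2. Its groups did not overlap in either comparison, yet the call was made with siRNA2 only (0.83 ± 0.10, adjusted p = 0.00024, edgeR).

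PSMB10 (chr16:67968409-67970767, − strand) replaces PSMB7 in the immunoproteasome, the variant that interferon induces. Its level was 13.0 and 9.76 FPKM in si-ctrl, 17.0 and 11.6 in si-PLANE.1, and 53.9 and 56.3 in si-PLANE.2. With a log2 fold change of 3.06 ± 0.17 (8.35-fold, adjusted p = 1.21e-05, edgeR) it had the largest rise of the 34 genes by counts. The size and rank depended on the scale: the ratio of the mean FPKM values was 4.85, and the log2 fold change was 2.20 on log2(FPKM + 1) and 2.06 on log2(TPM + 1) by limma, just under the 2.23 and 2.08 of PSMA7. The expected counts behind it were low in the control, 76.2 and 55.9, against 732 and 636 in si-PLANE.2. A read-through gene that shares 640 exonic bases with PSMB10 was at 0.39 to 3.18 FPKM, so some reads cannot be divided between them. Its most abundant transcript in all groups was PSMB10-203, annotated as a retained intron. It made up 81.6% and 83.8% of the gene's FPKM in si-ctrl, 72.2% and 88.5% in si-PLANE.1, and 49.2% and 53.4% in si-PLANE.2. When only transcripts annotated as protein-coding were counted, a choice made after seeing the data, the log2 fold change was 4.58, and with the most abundant transcript alone it was 1.77.

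Of the alpha ring, 6 of 7 genes rose with si-PLANE.2, with a median log2 fold change of 1.02 over the 7. PSMA7 (chr20:60711789-60718496, − strand) rose most. It measured 88.2 and 69.6 FPKM in si-ctrl, 74.1 and 74.1 in si-PLANE.1, and 381 and 363 in si-PLANE.2, where it became the most abundant subunit mRNA (log2 fold change 2.46 ± 0.13, adjusted p = 9.18e-06, edgeR). PSMA5 rose by 1.66 and PSMA2 by 1.31 on the log2 scale. PSMA4, one of the genes with an ARE match, measured 211 and 147 FPKM in si-ctrl and 236 and 223 in si-PLANE.2. It did not pass the test (log2 fold change 0.34 ± 0.15, adjusted p = 0.078, edgeR), although DESeq2 gave 0.045 and leaving out si-ctrl replicate 1 gave 1.97e-08 by edgeR. Of the beta ring, 6 of 6 genes analysed rose, with a median of 1.10 and a range from 0.65 (PSMB4) to 1.56 (PSMB5). PSMB3 of this ring was not analysed.

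In the base of the 19S cap, 9 of 9 genes were called higher with si-PLANE.2, with a median log2 fold change of 1.09. PSMC3 (chr11:47440320-47448024, − strand), an ATPase, measured 42.7 and 30.4 FPKM in si-ctrl, 41.4 and 33.9 in si-PLANE.1, and 155 and 139 in si-PLANE.2. Its log2 fold change of 1.91 ± 0.15 (adjusted p = 4.01e-05, edgeR) was the largest of the 20 cap genes by counts summed over transcripts. PSMC5 (chr17:61904512-61909386, + strand), another ATPase and one of the genes with an ARE match, measured 64.6 and 52.2 FPKM in si-ctrl, 49.4 and 50.8 in si-PLANE.1, and 142 and 144 in si-PLANE.2. Its count-based log2 fold change was 1.84 ± 0.10 (adjusted p = 1.10e-05, edgeR), while the log2 ratio of the mean FPKM values was 1.29. FTSJ3 lies on the opposite strand and shares 655 exonic bases with PSMC5, so their reads cannot be told apart where strand was not kept.

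The other base genes rose by less. PSMC1 rose by 1.48 on the log2 scale, but its processed pseudogenes took up 7.03 FPKM in si-ctrl replicate 1 and 24.2 in si-PLANE.2 replicate 3 and at most 0.05 FPKM in the other libraries. The ubiquitin receptor PSMD4 rose by 1.24, the scaffold subunit PSMD2 by 1.09, the ATPases PSMC2 by 1.02 and PSMC6 by 0.99, and the scaffold subunit PSMD1 by 0.58. PSMC4 had the smallest fitted rise of the base by counts, 0.49 ± 0.13 (adjusted p = 0.012, edgeR), and its FPKM was 179 and 139 in si-ctrl against 204 and 208 in si-PLANE.2. On log2(FPKM + 1) neither PSMC4 (adjusted p = 0.060, limma) nor PSMC2 (adjusted p = 0.060, limma) nor PSMD1 (adjusted p = 0.68, limma) was called. By mean FPKM the order was another: the log2 ratio was 0.07 for PSMD1, 0.26 for PSMC2 and 0.38 for PSMC4. On log2(TPM + 1) PSMC2 was at 0.10 and PSMD1 at -0.06.

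The lid had a median of 0.45, the lowest among the structural sub-groups, and 6 of its 8 genes were called, all higher. PSMD13 rose by 1.27 and the deubiquitinase PSMD14 by 0.99 on the log2 scale. PSMD3, whose promoter holds the ARE core, rose by 0.71, PSMD7, the partner of PSMD14, by 0.53, and PSMD6 by 0.37 (adjusted p = 0.048, edgeR). PSMD11, at 76.1 and 66.9 FPKM in si-ctrl and 80.4 and 79.8 in si-PLANE.2, did not pass (log2 fold change -0.10 ± 0.10, adjusted p = 0.42, edgeR). PSMD12, at 50.7 and 37.4 FPKM in si-ctrl and 42.1 and 34.6 in si-PLANE.2, overlapped with the control and did not pass either (-0.03 ± 0.18, adjusted p = 0.89, edgeR). With protein-coding transcripts alone, PSMD11 was called lower (-0.46, adjusted p = 0.011, edgeR) and so was PSMD12 (-0.64, adjusted p = 0.045, edgeR).

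PSMD8 (chr19:38865203-38874490, + strand), the most abundant subunit mRNA of control cells, depended on the scale. It measured 332 and 321 FPKM in si-ctrl, 359 and 318 in si-PLANE.1, and 313 and 313 in si-PLANE.2. By counts it was called higher with si-PLANE.2 (0.26 ± 0.09, adjusted p = 0.035, edgeR), whereas its FPKM was lower in both si-PLANE.2 libraries and limma on log2(FPKM + 1) gave -0.06 (adjusted p = 0.58). The short transcript PSMD8-208 of 771 bases held 63.3% and 64.0% of its FPKM in si-ctrl and 52.6% and 54.3% in si-PLANE.2.

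The 3 chaperones that assemble the cap base did not move together. PSMD9 measured 33.1 and 33.0 FPKM in si-ctrl, 30.6 and 31.2 in si-PLANE.1, and 102 and 90.9 in si-PLANE.2, a rise of 1.22 on the log2 scale. PSMD5 (chr9:123577774-123605229, − strand) was the only one of the 34 genes called lower. It measured 25.8 and 21.4 FPKM in si-ctrl, 22.8 and 22.9 in si-PLANE.1, and 14.7 and 15.3 in si-PLANE.2, and its log2 fold change was -0.72 ± 0.11 (SE, adjusted p = 0.00074, edgeR). PSMD10 was called higher by counts (0.35) but not on log2(FPKM + 1), where the value was 0.09 (adjusted p = 0.48, limma).

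**Figure D3:**
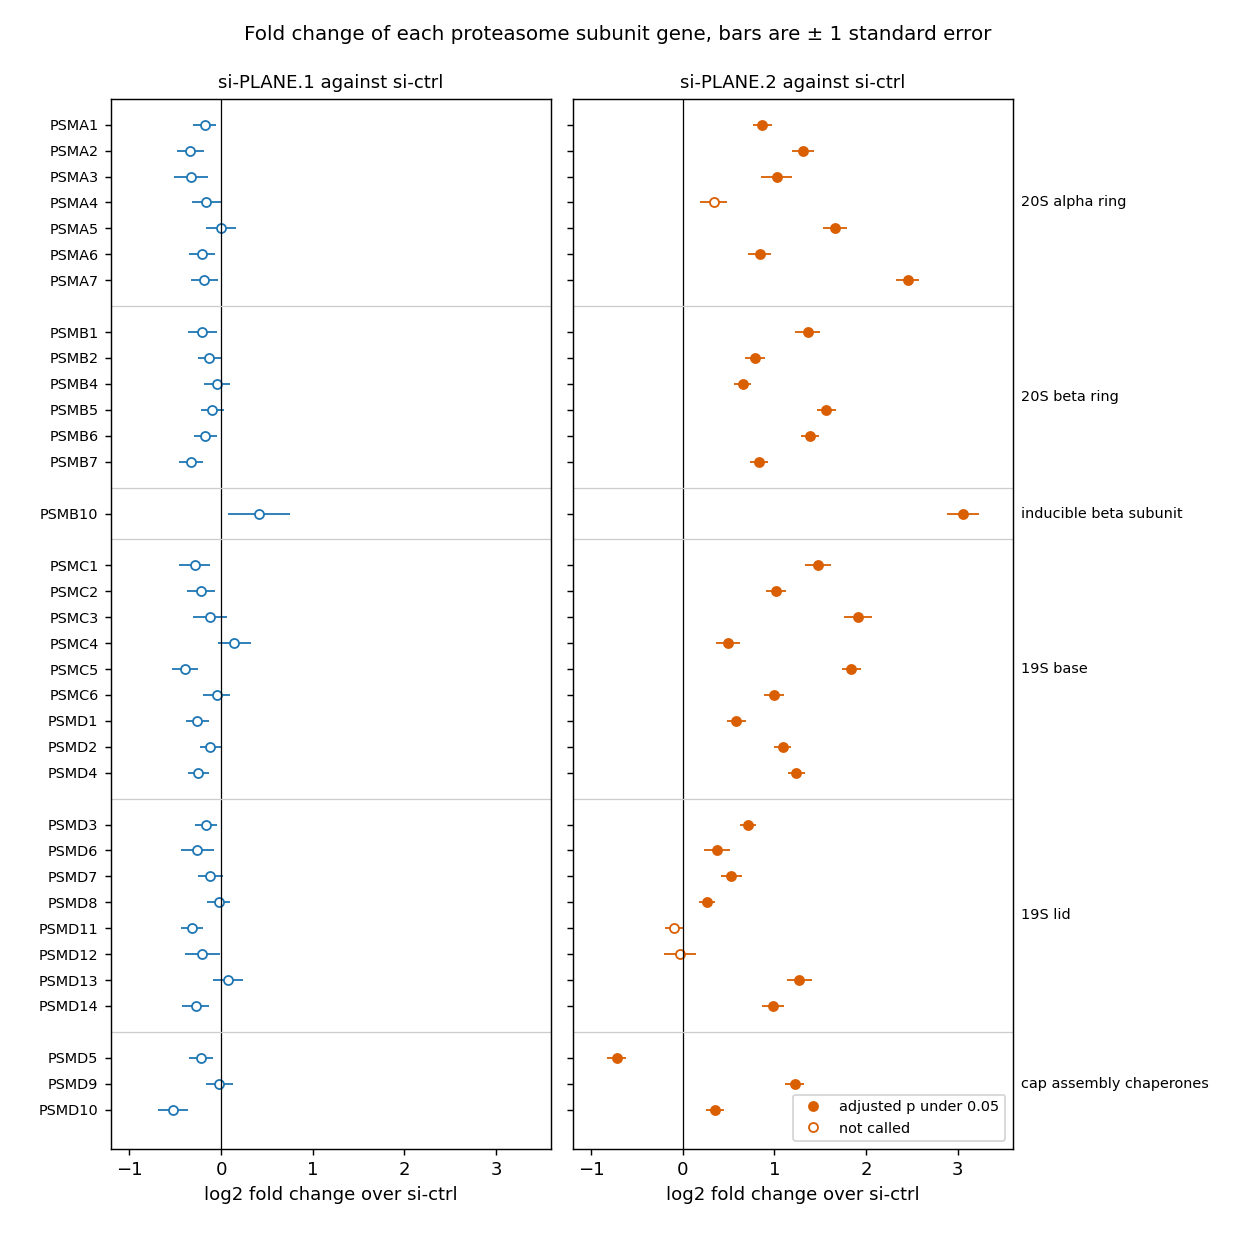
Log2 fold change over si-ctrl by edgeR for each proteasome subunit gene (points, with bars of ± 1 standard error), for si-PLANE.1 (left) and si-PLANE.2 (right). Filled points have an adjusted p under 0.05 over all genes: 0 of 34 on the left and 31 of 34 on the right, of which PSMD5 alone lies below 0.

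The si-PLANE.2 and si-PLANE.1 libraries were compared directly in a fit of all 6 libraries. This comparison does not separate the siRNA from library preparation. edgeR called 31 of 34 genes, 30 of them higher in si-PLANE.2, against 64.4% of all genes called and 31.1% called higher. On log2(TPM + 1), 20 of 34 were called, against 59.8% of all genes. The median log2 difference was 1.18 for the 34 genes and -0.06 for all genes. PSMC4 (0.35, adjusted p = 0.084, edgeR), PSMD11 (0.23, adjusted p = 0.087, edgeR) and PSMD12 (0.18, adjusted p = 0.39, edgeR) were the genes not called. In 8 genes, PSMA3, PSMB7, PSMC2, PSMC5, PSMD9, PSMD10, PSMD11 and PSMD14, both si-PLANE.1 libraries lay below and both si-PLANE.2 libraries above the control libraries in FPKM, against 5.28% of all genes. By counts the fitted values were close to 0 for PSMD9 with si-PLANE.1 (-0.02) and below 0 for PSMD11 with si-PLANE.2 (-0.10).

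The balance of core and cap mRNA was compared by the ratio of their summed FPKM values. The ratio was 0.853 and 0.810 in si-ctrl (0.831 ± 0.031, SD, n = 2), 0.767 and 0.833 in si-PLANE.1 (0.800 ± 0.047, SD, n = 2), and 1.12 and 1.09 in si-PLANE.2 (1.10 ± 0.021, SD, n = 2). The si-PLANE.1 range overlapped with that of the control, and both si-PLANE.2 values lay above it, by a factor of 1.33 ± 0.055 (SD) over the control mean. The sum of the core genes was 1330 and 1099 FPKM in si-ctrl and 2448 and 2325 in si-PLANE.2, and that of the cap genes was 1560 and 1357 FPKM in si-ctrl and 2191 and 2136 in si-PLANE.2. No test was made, since 2 libraries against 2 allow no two-sided exact permutation p below 0.333. Within the cap, the base summed to 679 and 565 FPKM in si-ctrl and 1150 and 1120 in si-PLANE.2. The lid summed to 782 and 697 FPKM in si-ctrl and 881 and 867 in si-PLANE.2. PSMD8 alone contributed 332 and 321 FPKM to the cap in si-ctrl and 313 in each si-PLANE.2 library. PSMA7 contributed 88.2 and 69.6 FPKM to the core in si-ctrl and 381 and 363 in si-PLANE.2. The ratio thus leaned on the lid and on single genes, and does not show a shift shared by all core and cap genes.

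The 34 genes together held 0.413% and 0.322% of all gene FPKM in si-ctrl, 0.395% and 0.348% in si-PLANE.1, and 0.564% and 0.549% in si-PLANE.2. The values of si-PLANE.1 lay within the control range. Those of si-PLANE.2 were 1.52 ± 0.27 (SD) times the control mean. Both measures are shares of the sequenced RNA, so a change in the total RNA of a cell could not be seen.

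**Figure D4:**
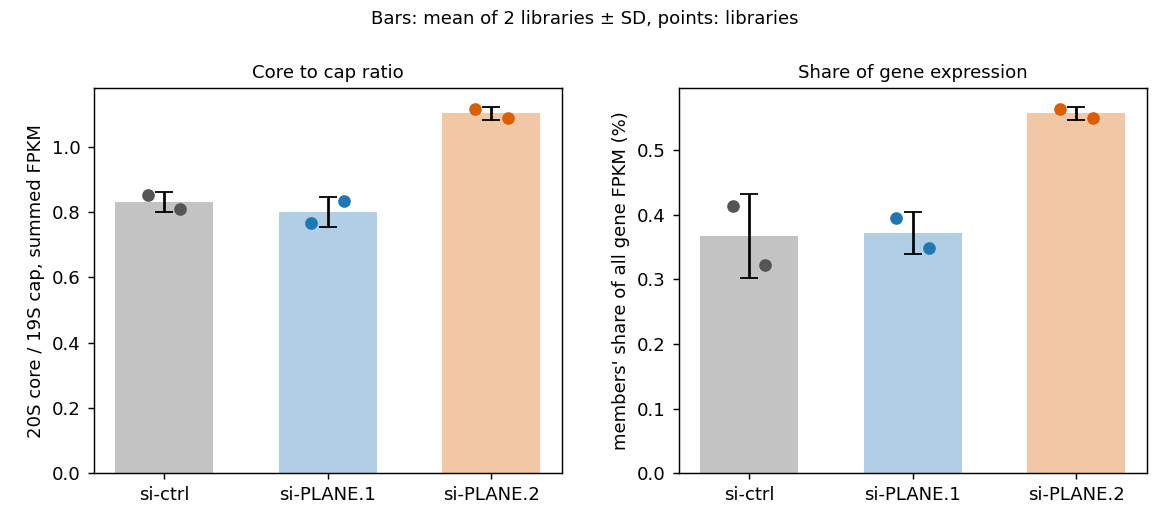
Ratio of summed FPKM of 20S core to 19S cap genes (left) and share of all gene FPKM held by the 34 genes in percent (right), with bars at the mean of 2 libraries, error bars of ± 1 SD and a point for each library. The si-PLANE.2 points (1.12 and 1.09 on the left, 0.564% and 0.549% on the right) lie above those of the other groups, which overlap.

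Each gene is a sum over several transcripts, and the 34 genes had 327 of them in the tables. Transcripts annotated as protein-coding held 88.4% and 87.7% of the summed FPKM in si-ctrl, 86.2% and 87.3% in si-PLANE.1, and 85.2% and 85.3% in si-PLANE.2. Retained-intron transcripts held 6.74% to 8.20% in the 6 libraries. The most abundant transcript differed from that of si-ctrl in 4 of the 33 genes with several transcripts with each siRNA, against 16.8% (si-PLANE.1) and 37.2% (si-PLANE.2) of the 12756 such genes in all. In PSMC2 the 656-base transcript PSMC2-202 held 39.3% and 54.6% of the FPKM in si-ctrl and 42.6% and 37.5% in si-PLANE.1, but 0% and 0.535% in si-PLANE.2. The 1526-base PSMC2-201 held 54.4% and 37.1% in si-ctrl, 47.6% and 56.2% in si-PLANE.1, and 96.5% and 95.9% in si-PLANE.2, so it also led in si-ctrl replicate 1 and in both si-PLANE.1 libraries. In PSMD13 the leading transcript of the control, PSMD13-202, is annotated as a target of nonsense-mediated decay. It held 51.2% and 53.8% in si-ctrl, 56.7% and 47.6% in si-PLANE.1, and 36.0% and 29.7% in si-PLANE.2. In PSMC5 the share of PSMC5-201 was 38.2% and 47.3% in si-ctrl, 32.9% and 34.5% in si-PLANE.1, and 84.4% and 74.6% in si-PLANE.2.

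Transcript length and GC content were set beside the response to si-PLANE.2. Across the 34 genes, Spearman's rho between the log2 fold change and the length of the leading control transcript was -0.32, and with its GC content 0.34. Across all genes tested, rho was -0.18 for length (14168 genes) and 0.34 for GC content (13076 genes). Genes of the same libraries are not independent replicates. By length of the leading transcript, the median log2 fold change of all genes did not fall steadily. It was 0.06 up to 1000 bases (3910 genes), 0.39 up to 1500, 0.34 up to 2000, 0.12 up to 3000 and -0.38 above 3000 (4466 genes). For the subunit genes it was 1.12 (12 genes), 1.24 (9 genes), 0.87 (7 genes), 0.71 (3 genes) and 0.58 (3 genes) in the same order.

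Other genes of the pathway were followed in 7 lists of 39 genes in all. With si-PLANE.1, 0 of 37 genes tested were called. With si-PLANE.2, 26 of 36 genes tested were called, 17 higher and 9 lower, against 64.1% of all genes called, 31.8% higher and 32.3% lower. On log2(FPKM + 1) limma called 23 of the 36, 10 of them higher and 13 lower, so the directions of this group depended on the scale. Without si-PLANE.2 replicate 3 edgeR called 15 genes. Among the 6 other assembly chaperones, which build the core and cap, 5 rose and 1 fell by counts, with PSMG3 at 1.50 ± 0.13 and PSMG2 at 0.88 ± 0.15 on the log2 scale. The rises numbered 3 on log2(FPKM + 1) and 2 on log2(TPM + 1), where PSMG2 was not called (0.48 and 0.32), and by its most abundant transcript PSMG2 was called lower (-0.89, adjusted p = 0.048, edgeR). Of 6 other cap proteins and associated enzymes 3 rose and 1 fell by counts. The rise of the ubiquitin ligase UBE3C (0.26, adjusted p = 0.048, edgeR) went against its FPKM, which was 40.7 and 34.5 in si-ctrl and 30.0 and 30.6 in si-PLANE.2. SHFM1 (current symbol SEM1), a small lid subunit, measured 26.4 and 34.4 FPKM in si-ctrl, 45.6 and 32.0 in si-PLANE.1, and 282 and 259 in si-PLANE.2 (2.72 ± 0.12), and the ubiquitin receptor ADRM1 rose by 1.62.

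The ubiquitin genes and E1 enzymes gave 5 rises and 1 fall by counts. By limma there were 3 rises and 1 fall on log2(FPKM + 1), and 3 rises and 2 falls on log2(TPM + 1). Among the rises by counts, that of the polyubiquitin gene UBB (0.58) went against its FPKM, which was 1440 and 1644 in si-ctrl and 1376 and 1233 in si-PLANE.2. RPS27A, a fusion of ubiquitin to a ribosomal protein, rose by 2.17 on the log2 scale. RPS27A has many processed copies, which makes its counts uncertain. Of the 8 ubiquitin shuttles and segregase genes, 2 rose and 2 fell by counts, a share called below that of all genes. The segregase ATPase VCP was at 1.68 ± 0.15 and the shuttle UBQLN4 at -0.58 ± 0.10. On log2(FPKM + 1) and on log2(TPM + 1) limma called 1 of the 8 higher and 4 lower. Among the 5 activators and inhibitor of the core, PSME2 was called higher at 0.79 ± 0.29 (adjusted p = 0.043, edgeR), PSME3 was called higher at 0.32 (adjusted p = 0.044, edgeR), and PSME4 was lower at -0.68 ± 0.09. The value of PSME2 varied with the control library: its FPKM was 140 and 54.1 in si-ctrl and 130 and 131 in si-PLANE.2, so the groups overlapped, and its log2 fold change was 1.43 without si-ctrl replicate 1 and 0.36 without replicate 2. DESeq2 gave PSME2 an adjusted p of 0.18. The call of PSME3 was lost with only genes of at least 2 FPKM (adjusted p = 0.070, edgeR) and with protein-coding transcripts (adjusted p = 0.15, edgeR), among others, while its value was 2.24 by the most abundant transcript.

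Of the transcription factors and their processing enzymes, 0 of 4 were called higher with si-PLANE.2, against 31.8% of all genes. NFE2L1 measured 114 and 107 FPKM in si-ctrl, 142 and 122 in si-PLANE.1, and 74.5 and 79.8 in si-PLANE.2. Its count-based log2 fold change with si-PLANE.2 was 0.04 ± 0.09 (adjusted p = 0.72, edgeR), whereas all 4 genes of the list were called lower by limma on log2(FPKM + 1). On that scale falls were common, with 57.2% of all genes called and 21.2% called higher. The other 3 genes of the list were called lower by counts as well, against 32.3% of all genes. NFE2L2, a related factor, was at -0.87 ± 0.11. DDI2, the protease that releases NFE2L1, was at -0.89 ± 0.12, and NGLY1, which removes the sugar chains of NFE2L1, at -0.63 ± 0.11. With protein-coding transcripts alone NGLY1 was at 0.03 and was not called (adjusted p = 0.89, edgeR). The inducible subunit PSMB9 measured 5.28 and 0.82 FPKM in the control libraries, against 2.47 and 2.09 in si-PLANE.2, and its value of -0.19 ± 0.71 did not pass (adjusted p = 0.83, edgeR). Without si-ctrl replicate 1 PSMB9 was called higher (1.68, adjusted p = 0.042, edgeR), and without replicate 2 it was at -0.97. PSMB8 lay under 1 FPKM in all libraries, and PSMB11 and PSMA8, of thymus and testis, were listed at 0.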

How the data were processed

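RNA-seq of 6 A549 libraries was analysed. The authors deposited expected counts per transcript, without normalization, and FPKM values, which correct for length and depth, in 2 tables (hg19). The submitters' processing notes list Trimmomatic 0.30, HISAT2 2.0.1, HTSeq 0.6.1 and DESeq. The tables also hold fold changes and p-values of the authors, which were not used.

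Transcripts were summed per gene. The sums of expected counts, rounded to whole numbers, entered edgeR 4.0.16 (glmQLFit and glmQLFTest after TMM, in R 4.3.3) if the gene averaged 0.5 FPKM or more in the fitted libraries, with an adjusted p under 0.05 over all genes. Each siRNA was fitted with si-ctrl (4 libraries), and the siRNAs were compared in a fit of 6. Transcripts without a gene identifier, 16723 of 180253, held 3.03% to 3.62% of the counts and were left out. With 2 libraries per group and 10572151 to 20778431 counts each, small changes cannot be resolved.

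DESeq2 1.42.0, limma 3.58.1, other scalings, filters and pseudocounts, the most abundant transcript and leaving out libraries were alternatives. Scripts were tested on simulated data. All 34 genes found were described by sub-group, with library values for the catalytic subunits, the 2 highest and 2 lowest, and up to 4 extremes in each direction per comparison. Of other lists, the 2 largest called changes were named. A gene that this rule covers and a marker gene are not reported here. Members and lists were chosen with earlier results of these data known. Values of PSMA4, PSMD9 and further genes beyond this rule were named after they had been seen. PSMB3 and PLANE were not analysed here.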

Additional observations from a re-analysis of the deposited data

Results flagged for a closer look

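Levels differed between the si-PLANE.2 and si-PLANE.1 libraries in their direct comparison by edgeR, which cannot tell the siRNA from library preparation. Of the 34 genes, 31 differed, beside 64.4% of all genes. Among the catalytic subunits the log2 difference, si-PLANE.2 minus si-PLANE.1, was 2.65 for PSMB10, 1.66 for PSMB5, 1.57 for PSMB6 and 1.16 for PSMB7. Among the other genes at the extremes it was 2.64 for PSMA7, 2.24 for PSMC5, 2.04 for PSMC3 and -0.50 for PSMD5. The histone mRNA level that separates the si-PLANE.2 libraries moved with all these values, and its part in them was not tested. Groups of 2 libraries hold too few values for a check of single outlying samples.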

How the results depend on the processing

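Members called with si-PLANE.1 numbered 0 under each alternative but the replicate block, which gave 2 (PSMC5 and PSMD10, both lower) and 8.43% of all genes, and 5 of the other pathway genes. Differences between replicates 1 and 2 correlated across genes at 0.50 in si-ctrl and si-PLANE.1, but the labels do not say what the numbers mark and there are only 2 pairs. No paired analysis was possible for si-PLANE.2 because its libraries share no replicate number with si-ctrl. Members called numbered 20 on log2(TPM + 1) for si-PLANE.2, and likewise 20 against si-PLANE.1. Leaving out 1 library gave 0 to 0, 26 to 33 and 28 to 32 members in the order of the comparisons above, and 15 (without si-PLANE.2 replicate 3) to 29 other pathway genes for si-PLANE.2, and in such fits the lone library of a group is assumed to vary like the others. The factor between the core to cap ratios of si-PLANE.2 and si-ctrl was 1.23 by medians and 1.26 by the most abundant transcript.

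Of 570 single-gene values under alternatives that kept all libraries, 524 kept direction and call and 13 reversed. With si-PLANE.1, PSMB5 reversed to 0.047 on log2(FPKM + 1), 0.048 on log2(FPKM + 0.1) and 0.12 on log2(TPM + 1), and PSMC5 to 0.045 by its most abundant transcript. With si-PLANE.2, PSMD8 reversed to -0.062, -0.062 and -0.22 on these scales in turn and -0.16 by its most abundant transcript, PSMD11 to 0.16, 0.17 and 0.0062, and, on log2(TPM + 1), PSMD1 to -0.062 and PSMD10 to -0.065. With a library left out, values crossed 0 for PSMB10 (-0.059 to 0.76), PSMB5 (-0.18 to 0.0039), PSMC4 (-0.054 to 0.34) and PSMD13 (-0.11 to 0.28) with si-PLANE.1, and for PSMD12 (-0.26 to 0.27) with si-PLANE.2. PSMD12 was called higher without si-ctrl replicate 1 and lower without replicate 2. The cause was not tested in any case.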

Other observations

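The interferon-inducible genes of the pathway differed between replicates within groups more than between si-ctrl and si-PLANE.1. PSMB9, a catalytic subunit of the immunoproteasome, was at 5.28 and 0.82 FPKM in si-ctrl replicates 1 and 2 and at 5.92 and 1.35 FPKM in si-PLANE.1 replicates 1 and 2. PSMB8, its partner, was at 0.85 and 0.25 FPKM and at 0.76 and 0.26 FPKM. PSME1 and PSME2, the subunits of the activator cap that interferon raises, showed the same order: 216 and 120 FPKM in si-ctrl and 223 and 117 FPKM in si-PLANE.1 for PSME1, and 140 and 54.1 FPKM and 142 and 60.5 FPKM for PSME2. PSMB10 was likewise higher in the libraries numbered 1, at 13.0 against 9.76 FPKM and 17.0 against 11.6 FPKM. This order was not particular to PSMB10. After TMM scaling, 30 of the 34 subunit genes were higher in si-ctrl replicate 1 (49.6% of all genes), and 20 of 34 in si-PLANE.1 replicate 1 (49% of all genes). PSMA4, for example, was at 211 and 147 FPKM in si-ctrl. In si-PLANE.2 the libraries were alike, at 163 and 154 FPKM for PSME1, 130 and 131 FPKM for PSME2, and 2.47 and 2.09 FPKM for PSMB9. These genes were picked after their values had been seen, and what the numbers 1 and 2 share is not given.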
